A study of Arabidopsis thaliana with 6 samples.

Results

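The genes described here encode the enzymes that modify the indole ring of indole glucosinolates in Arabidopsis thaliana, the cytochrome P450 genes CYP81F1 to CYP81F4 and the O-methyltransferase genes IGMT1 to IGMT5. The rule took them by locus, 9 genes of the 21981 in the deposited expression table, and all 9 were present and passed the filter on low values. The set was chosen by its FPKM values in this same contrast, with the difference between the groups already known, so that difference is a description and carries no p-value. RNA was sequenced from leaves of 4-week-old Col-0 plants as 3 wild-type samples and 1 sample from each of 3 transgenic lines. The labels do not name the transgene, its promoter or how the lines were derived. They mention drought treatment in the same words for all 6 samples, so whether watering differed between the groups cannot be read from them, and they do not say whether the wild-type samples came from separate plants. By its title the series concerns endoreplication and the branching of leaf hairs.

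Glucosinolates are sulphur-rich glucosides of the cabbage family that yield toxic products when they meet a myrosinase. The tryptophan-derived parent compound, indol-3-ylmethyl glucosinolate, is hydroxylated on its indole ring by CYP81F enzymes and the hydroxyl group is then methylated by IGMT enzymes. CYP81F1, CYP81F2 and CYP81F3 act at ring position 4 and CYP81F4 at ring position 1. IGMT1 to IGMT4 methylate the 4-hydroxy compound and IGMT5 the 1-hydroxy compound. In leaves the 4-methoxy product, made through CYP81F2 and cleaved by the atypical myrosinase PEN2, is known for its part in callose deposition and in defence against fungi and aphids.

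Summed over all genes, the deposited values came to 970376 to 982620 FPKM per wild-type sample and 1261802 to 1278449 FPKM per transgenic line, where FPKM is a fragment count scaled for transcript length and library size. The reason is not given in the sources used here, so a fold change on the values as deposited carries this gap, and results that depend on it are marked. The leaf markers RBCS1A, LHCB1.1, CAB3, LHCB2.1 and RCA summed to between 28402 and 29537 FPKM per wild-type sample and between 48728 and 50340 FPKM per line. All 5 were called higher on the values as deposited, which carry this gap, as were 25.0% of all genes tested. Root markers were at or near 0: the 4 in the table, RHD6, COBL9, EXPA7 and PRP3, summed to at most 0.289 FPKM in any sample. Seed markers summed to at most 0.41 FPKM, and flower markers to between 6.75 and 7.68 FPKM per wild-type sample and between 2.70 and 7.27 FPKM per line. The part of these shifts in the results below was not tested.

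On the TAIR10.1 assembly 4 of the IGMT genes form a tandem array on the minus strand of chromosome 1, in the order IGMT1 (AT1G21100, 7386762 to 7388512), IGMT3 (AT1G21110, 7389981 to 7391603), IGMT2 (AT1G21120, 7395179 to 7396823) and IGMT4 (AT1G21130, 7398814 to 7400736). IGMT5 (AT1G76790) stands apart on the same chromosome at 28822186 to 28823727. CYP81F3 (AT4G37400, 17583992 to 17586442), CYP81F4 (AT4G37410, 17590772 to 17592920) and CYP81F1 (AT4G37430, 17597110 to 17598958) lie close together on the plus strand of chromosome 4, and CYP81F2 (AT5G57220) is alone on chromosome 5 at 23187840 to 23189902. Each value below covers a whole annotated gene.

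How well reads can tell these copies apart differs along the set. IGMT2 and IGMT3 were identical at 97.4% of aligned coding positions, the other pairs within the array at 92.5% to 93.4%, and IGMT5 at 72.9% to 73.4% with each of them. The first 60 coding bases, all in exon 1, are printed to show this, 5′ to 3′, with capitals where a letter differs from IGMT1 at the same position counted from the start codon. On chromosome 1 of TAIR10.1, minus strand, they are chr1:7388259-7388318, chr1:7396581-7396640, chr1:7391360-7391419, chr1:7400411-7400470 and chr1:28823571-28823630 for IGMT1 to IGMT5.
IGMT1: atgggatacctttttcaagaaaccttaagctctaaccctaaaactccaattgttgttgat
IGMT2: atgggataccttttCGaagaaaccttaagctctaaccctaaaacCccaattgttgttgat
IGMT3: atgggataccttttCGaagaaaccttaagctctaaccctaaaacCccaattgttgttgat
IGMT4: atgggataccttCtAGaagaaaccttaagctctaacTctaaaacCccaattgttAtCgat
IGMT5: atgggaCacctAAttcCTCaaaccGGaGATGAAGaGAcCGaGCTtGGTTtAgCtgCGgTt
IGMT2 and IGMT3 carry the same letters throughout this stretch and differ from IGMT1 at 3 positions, IGMT4 differs at 7 and IGMT5 at 31. Over whole transcripts, 22.1% of the 100-base stretches of IGMT3 and 20.7% of those of IGMT2 also occur in another gene, against 3.46% for IGMT1, 3.49% for IGMT4 and 0 for IGMT5. For 50-base stretches in sense the shares were 42.6% for IGMT3, 34.3% for IGMT2, 12.1% for IGMT1, 9.28% for IGMT4 and 0 for IGMT5. How the authors assigned reads that match 2 copies is not given in the sources used here, so the separate values of IGMT2 and IGMT3 are less sure than their sum with IGMT1. The CYP81F genes share no stretch of 50 bases in sense with any other gene. Their coding identity ran from 68.7% (CYP81F2 and CYP81F4) to 81.1% (CYP81F3 and CYP81F4).

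Among the hydroxylases the group difference was by far the greatest in CYP81F2, the leaf enzyme of the 4-position. It stood at 23.1, 20.1 and 17.5 FPKM in wild-type replicates 1, 2 and 3, against 112, 124 and 120.3 FPKM in transgenic lines 1, 2 and 3. The lowest line thus lay far above the highest wild-type sample. The means were 20.2 ± 2.83 and 118 ± 6.19 FPKM (SD, n = 3), a ratio of 5.85 and a log2 fold change of 2.50 (SE 0.097) on the log2(FPKM + 1) scale. In bulk leaf tissue, a change in the number of cells of a type and a change in RNA per cell cannot be told apart. This holds here and for every gene below.

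The other 4-position hydroxylases had low values. CYP81F3 was at 1.36, 2.47 and 1.84 FPKM in wild type, against 5.44, 5.52 and 4.23 FPKM in the lines, without overlap, with a log2 fold change of 1.08 (SE 0.186). CYP81F1 was at 4.27, 3.18 and 3.46 FPKM in wild type, against 2.49, 3.58 and 1.91 FPKM in the lines. Line 2 of CYP81F1 lay within the wild-type range while the other lines lay below it, and the log2 fold change was -0.36 (SE 0.198), which came to -0.21 without line 3 and -0.53 without line 2. Its coefficient of variation, 31.9% among the lines, was the highest of the 9 genes. CYP81F4, the 1-position hydroxylase, was at 8.34, 8.61 and 7.92 FPKM in wild type, against 11.8, 12.1 and 13.6 FPKM in the lines. Its groups did not overlap, and the ratio of means was 1.51 (log2 fold change 0.54, SE 0.1).

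**Figure D1:**
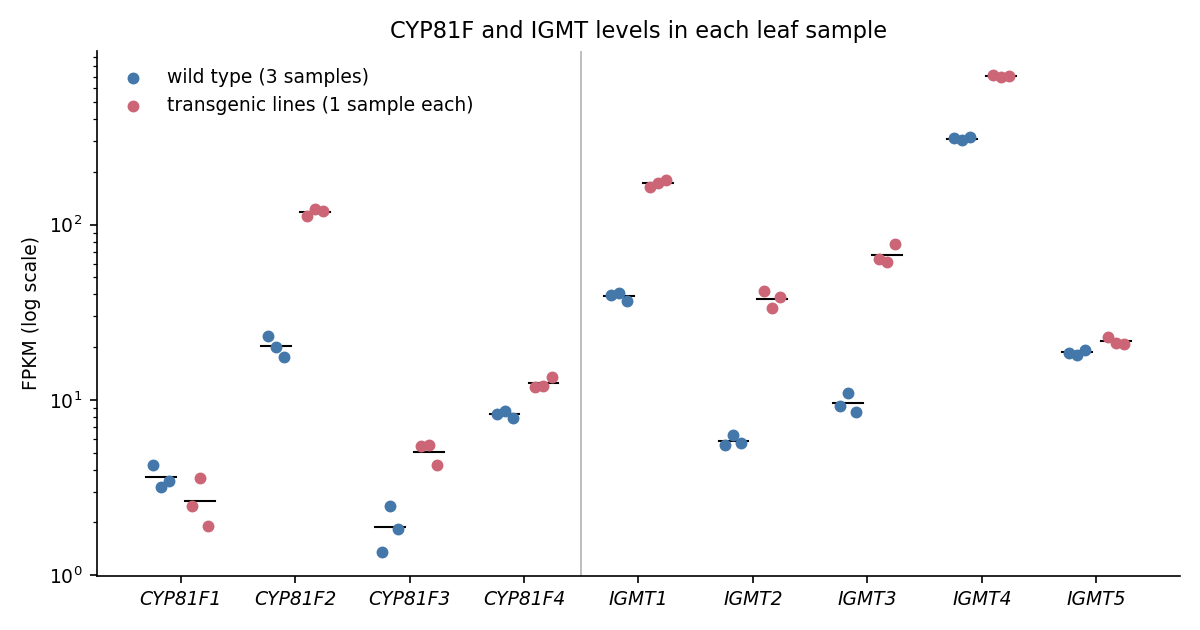
FPKM (log axis) of each gene in each of the 6 leaf samples, with wild type in blue, transgenic lines in red and the group mean as a black bar. CYP81F2, IGMT1, IGMT2 and IGMT3 show the widest gaps, IGMT4 has the highest level in both groups, and in CYP81F1 the groups overlap.

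The methyltransferase genes of the 4-position were all higher in the transgenic lines. IGMT4 was the most abundant of the 9 genes, with 311, 303 and 315 FPKM in wild type, against 718, 692 and 707 FPKM in the lines. Its spread within a group was the smallest of the set, with coefficients of variation of 1.98% and 1.89%, beside a log2 fold change of 1.19 (SE 0.038). IGMT1, with IGMT2 the methyltransferase best characterised for the 4-methoxy product, was at 39.4, 40.8 and 36.8 FPKM in wild type, against 164, 173 and 179.7 FPKM in the lines. That is a ratio of means of 4.41 and a log2 fold change of 2.11 (SE 0.062).

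IGMT2 and IGMT3 were the lesser transcripts of the array in wild type, and their log2 fold changes were at or above that of CYP81F2. The order of IGMT2 and CYP81F2 turned without wild-type replicate 1 (2.47 and 2.60) and without line 1 (2.43 and 2.54). IGMT3 was at 9.18, 10.98 and 8.59 FPKM in wild type, against 63.3, 61.4 and 77.5 FPKM in the lines, a log2 fold change of 2.69 (SE 0.115). IGMT2 was at 5.54, 6.31 and 5.69 FPKM in wild type, against 42.0, 33.3 and 38.4 FPKM in the lines, a log2 fold change of 2.50 (SE 0.106). Both had no overlap between groups, and the lines varied by 11.5% and 13.03% (coefficient of variation), more than in IGMT1 or IGMT4. The sum of IGMT1, IGMT2 and IGMT3 averaged 54.4 ± 3.52 FPKM in wild type against 277 ± 15.9 FPKM in the lines. It depends less on how reads were split between IGMT2 and IGMT3, but still on reads shared with IGMT4. With IGMT4 added, the sum was 364 ± 2.66 FPKM in wild type and 983 ± 22.2 FPKM in the lines. IGMT5, the 1-position methyltransferase, was at 18.6, 18.1 and 19.4 FPKM in wild type, against 22.7, 21.2 and 20.8 FPKM in the lines. The IGMT5 groups did not overlap, yet the ratio of means was 1.15 (log2 fold change 0.20, SE 0.078).

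Within each family the composition shifted, and a share within a sample does not depend on how that sample was scaled. CYP81F2 made up 62.4%, 58.5% and 56.9% of the summed CYP81F FPKM of wild-type replicates 1, 2 and 3, against 85.0%, 85.4% and 85.9% for lines 1, 2 and 3. CYP81F4 went from 24.4% ± 1.74 to 9.01% ± 0.672 and CYP81F1 from 10.7% ± 1.24 to 1.91% ± 0.556 (SD, n = 3). CYP81F3 stayed a minor transcript, at 5.62% ± 1.80 and 3.66% ± 0.578, with overlapping groups. Among the methyltransferases IGMT4 held 81.0%, 79.9% and 81.7% of the summed IGMT FPKM in wild type, against 71.1%, 70.6% and 69.1% in the lines. IGMT1 took 10.2% ± 0.613 and 17.1% ± 0.785, IGMT3 2.50% ± 0.347 and 6.70% ± 0.753, and IGMT2 1.53% ± 0.119 and 3.77% ± 0.38. IGMT5 had the smaller share in the lines, at 4.88% ± 0.128 in wild type and 2.15% ± 0.111 in the lines.

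**Figure D2:**
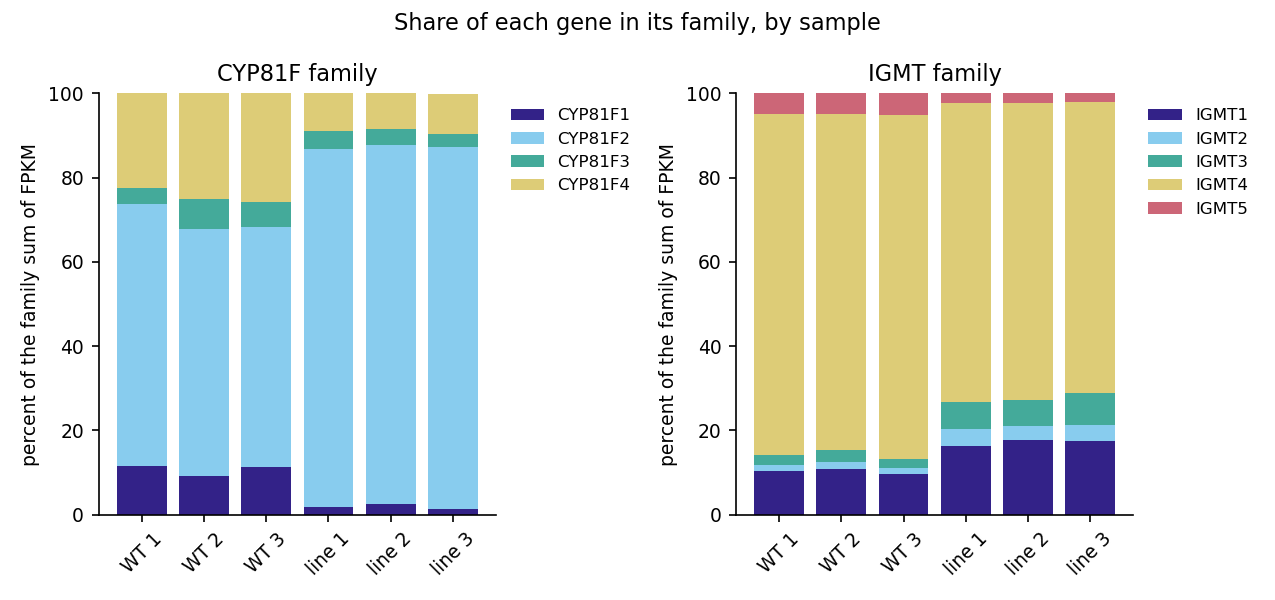
Stacked bars give each gene's percent of the summed FPKM of its family in each sample (WT, wild type), for CYP81F on the left and IGMT on the right. The CYP81F2 share is between 56.9% and 62.4% in wild type and between 85.0% and 85.9% in the lines, and that of IGMT4 between 79.9% and 81.7% and between 69.1% and 71.1%.

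Ratios of 4-position to 1-position genes, which are free of scaling, differed from gene to gene. CYP81F2 over CYP81F4 came to 2.77, 2.34 and 2.21 for wild type, against 9.45, 10.2 and 8.87 for the lines. IGMT1 over IGMT5 came to 2.12, 2.26 and 1.90 for wild type, against 7.21, 8.16 and 8.66 for the lines. In both of these ratios every line lay above every wild-type sample, as in CYP81F3 over CYP81F4, at 0.228 ± 0.062 and 0.41 ± 0.085 (SD, n = 3). CYP81F1 over CYP81F4 went the other way, at 0.439 ± 0.071 in wild type and 0.216 ± 0.078 in the lines, with every line below every wild-type sample. Ratios between consecutive steps also differed by gene. IGMT1 over CYP81F2 was 1.95 ± 0.213 in wild type and 1.45 ± 0.05 in the lines, and IGMT5 over CYP81F4 was 2.26 ± 0.173 and 1.74 ± 0.197 (SD, n = 3). IGMT4 over CYP81F2 was 15.5 ± 2.32 and 5.97 ± 0.427, and the sum of IGMT1 to IGMT4 over that of CYP81F1 to CYP81F3 was 14.3 ± 1.70 and 7.81 ± 0.526. In each of these 4 ratios every line lay below every wild-type sample. The groups overlapped in IGMT2 over CYP81F2, at 0.293 ± 0.047 and 0.322 ± 0.053, and in IGMT3 over CYP81F2, at 0.478 ± 0.076 and 0.57 ± 0.073. Within the tandem array IGMT4 over IGMT1 went from 7.96 ± 0.572 to 4.11 ± 0.24, while IGMT3 over IGMT2 was 1.64 ± 0.117 and 1.79 ± 0.259, with overlapping groups.

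In the fit over all 17093 genes tested with limma, 7 of the 9 genes were called higher at an adjusted p under 0.05 and none lower, where 25.0% of all genes were called higher and 15.7% lower. CYP81F1 and IGMT5 were not called. In 8 of the 9, all lines lay above all wild-type samples, as in 30.2% of all genes. The median log2 fold change was 1.19 over the 9 genes and 0.03 over all genes tested. CYP81F2, IGMT1, IGMT2 and IGMT3 were at least 4-fold higher on the log2(FPKM + 1) scale, as were 0.252% of all genes. Since the set was proposed from this contrast, nothing is read from these counts.

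Rescaling every sample to the same total (TPM) moved the median of all genes to -0.31, and all 9 values were lower for it. On that scale the log2 fold changes were 2.12 for CYP81F2, 1.74 for IGMT1, 2.14 for IGMT2, 2.32 for IGMT3 and 0.81 for IGMT4. The 4-position genes with wide gaps therefore kept their direction. CYP81F4 came to 0.19 and was no longer called, yet it lay 0.50 above the median of all genes, against 0.51 as deposited. IGMT5 turned from 0.20 to -0.17, which is 0.14 above that median. CYP81F1 reached -0.63 and was called lower, so that 6 genes were called higher and 1 lower, where 11.2% of all genes were called higher and 48.9% lower. All lines lay above all wild-type samples in 7 of the 9, as in 12.5% of all genes, and below them in CYP81F1 and IGMT5, as in 54.4% of all genes. Quantile normalization, which forces 1 distribution on all samples, gave 0.82 for IGMT4 and 0.11 for IGMT5, with 7 of the 9 called higher and none lower beside 19.1% and 20.2% of all genes.

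**Figure D3:**
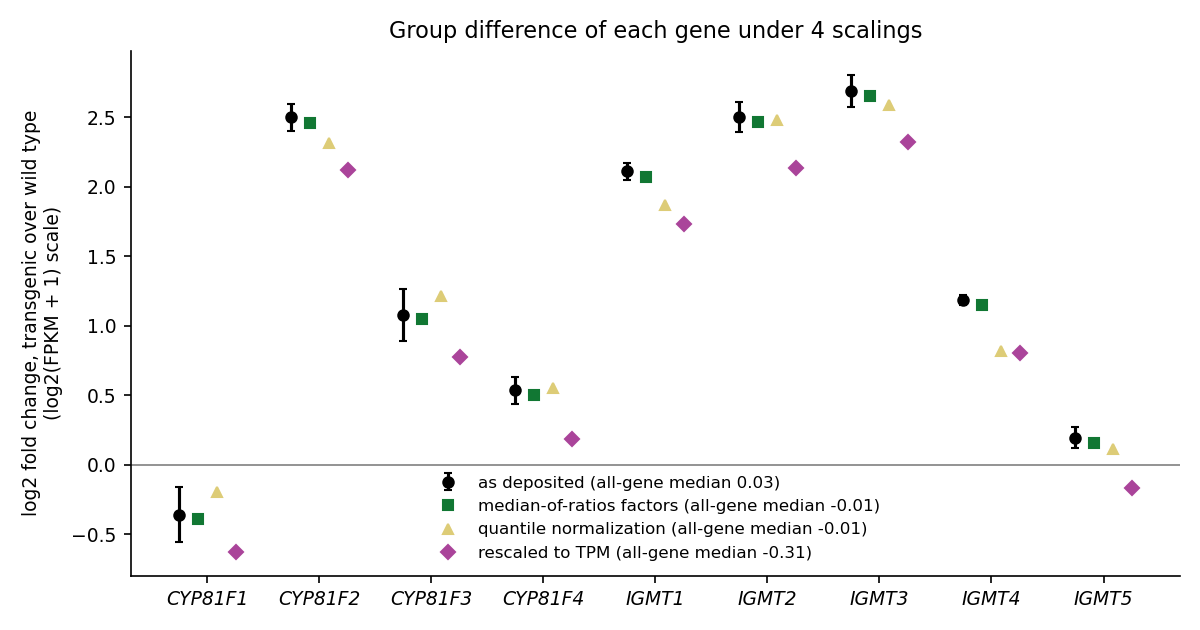
Log2 fold change of each gene, lines over wild type in log2(FPKM + 1), with the values as deposited (black, bars are limma's SE) and after 3 other scalings, with the median of all genes in the legend. CYP81F2 and IGMT1 to IGMT3 lie between 1.74 and 2.69 under all 4 scalings, whereas IGMT5 lies between -0.17 and 0.20.

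The 250 bases before the annotated gene start, read from the RefSeq TAIR10.1 genome, are shown for the 4 genes with the widest gaps. Capitals mark TTGAC or its reverse complement GTCAA, the core of the W-box that WRKY transcription factors bind.
CYP81F2 (chr5:23187590-23187839, plus strand): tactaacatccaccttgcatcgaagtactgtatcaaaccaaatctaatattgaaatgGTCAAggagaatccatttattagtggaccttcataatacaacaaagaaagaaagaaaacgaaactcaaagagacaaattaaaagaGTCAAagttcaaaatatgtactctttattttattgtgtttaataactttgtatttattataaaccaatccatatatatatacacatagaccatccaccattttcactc
IGMT1 (chr1:7388513-7388762, minus strand): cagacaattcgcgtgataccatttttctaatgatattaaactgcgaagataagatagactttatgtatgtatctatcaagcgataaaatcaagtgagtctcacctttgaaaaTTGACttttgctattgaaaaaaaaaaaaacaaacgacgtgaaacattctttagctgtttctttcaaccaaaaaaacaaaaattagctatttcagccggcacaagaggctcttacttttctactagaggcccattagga
IGMT2 (chr1:7396824-7397073, minus strand): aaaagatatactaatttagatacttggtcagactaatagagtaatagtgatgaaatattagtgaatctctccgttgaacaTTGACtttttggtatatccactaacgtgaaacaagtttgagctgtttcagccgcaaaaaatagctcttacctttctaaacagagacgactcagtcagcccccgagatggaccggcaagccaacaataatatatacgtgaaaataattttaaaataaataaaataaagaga
IGMT3 (chr1:7391604-7391853, minus strand): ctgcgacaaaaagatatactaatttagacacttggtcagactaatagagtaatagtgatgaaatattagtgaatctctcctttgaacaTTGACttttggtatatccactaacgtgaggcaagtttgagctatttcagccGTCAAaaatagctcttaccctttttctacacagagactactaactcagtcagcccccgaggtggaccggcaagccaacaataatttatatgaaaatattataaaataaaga
These windows of IGMT2 and IGMT3 are identical at 84.2% of aligned positions, while that of IGMT1 matches them at 49.1% and 49.3%, so the likeness of this pair extends beyond the coding sequence. On both strands, the W-box core TTGAC occurred in the windows of 6 of the 9 genes and in 44.9% of the 27443 windows of all protein-coding genes. The full W-box, TTGACC or TTGACT, which contains the core, occurred in 5 of 9 and in 28.4% of all windows. The 5 were CYP81F2, with 2 matches, and IGMT1, IGMT2, IGMT3 and IGMT4 with 1 each. CYP81F4 had the core only, and CYP81F1, CYP81F3 and IGMT5 had none in this window. TATAAA was found in the windows of CYP81F2, IGMT3, IGMT4 and IGMT5, against 47.3% of all windows. The G-box CACGTG (6.49% of all windows) and the GCC box GCCGCC (1.87%) had no match in any of the 9. A match describes letters only, and no binding was measured.

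**Figure D4:**
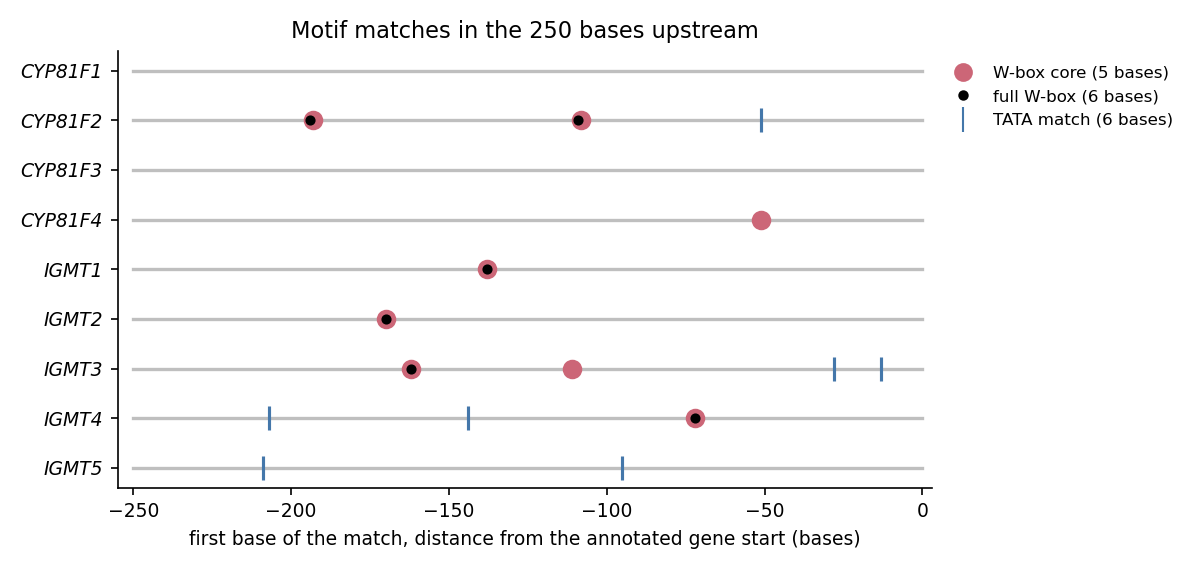
Position of the first base of each match, in bases before the annotated gene start, in the 250 bases upstream of each gene: W-box core (red), full W-box (black) and TATAAA (blue bar). Full W-boxes lie upstream of CYP81F2 and IGMT1 to IGMT4, and the other 4 genes have none in this window.

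Overlapping and neighbouring genes bear on how far the values belong to the named gene. CYP81F1 shares 98.4% of its exonic bases with the long noncoding RNA gene AT4G37432 on the opposite strand, which has no row in the table. CYP81F4 shares 88.2% of its exonic bases with AT4G37409 on the opposite strand, listed at 0.035 FPKM in wild-type replicate 2 and at 0 in the other samples. IGMT5 overlaps AT1G76780 by 71 bases. Whether reads were counted by strand is not given in the sources used here, so the values of CYP81F1 and CYP81F4 may hold reads of these opposite-strand genes. The low value of AT4G37409 depends on the same unknown. Shares and ratios that use CYP81F1 or CYP81F4 carry this limit too. The genes beside the members gave the following values. AT1G21090, 181 bases beyond IGMT1, went from 9.59 ± 0.67 to 15.3 ± 1.17 FPKM, and GH3.2 (AT4G37390), an auxin-conjugating enzyme gene listed as BRU6 beside CYP81F3, went from 5.01 ± 0.672 to 2.15 ± 0.226 FPKM. AT5G57210 and AT5G57230 on either side of CYP81F2 were not called, with ratios of means of 1.02 and 0.984. AT1G76800 beside IGMT5 went from 3.66 ± 0.145 to 1.47 ± 0.076 FPKM.

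The other genes of the pathway are counted by list, beside 25.0% of all genes called higher and 15.7% lower as deposited, and beside 11.2% and 48.9% on the TPM scale. The lists were written with earlier results of these data known, so their calls, here and in the lists below, are descriptions. Of 12 core synthesis genes 10 rose and 1 fell with limma over all genes (median log2 fold change 0.61), and 8 were called higher and 3 lower after TPM. SUR1, among the 10, lost its call or its direction under 7 alternatives. CYP79B2, which turns tryptophan into its oxime, rose from 49.8 ± 1.20 to 76.4 ± 3.67 FPKM, and CYP79B3, with the same activity, rose from 61.5 ± 4.97 to 94.6 ± 9.03 FPKM. CYP83B1, which takes the oxime on, rose from 311 ± 10.7 to 539 ± 3.33 FPKM (log2 fold change 0.79 with SE 0.04). The glutathione steps included GSTF10 (log2 fold change 0.85), GSTU13 (1.18) and the peptidase gene GGP1, which rose from 265 ± 11.4 to 623 ± 19.6 FPKM. GSTF9, named after its values were seen as the only one that fell, went from 1327 ± 31.4 to 1167 ± 47.8 FPKM.

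Of 12 tested regulators of the indole pathway 7 rose and 2 fell (median 0.59), beside 25.0% and 15.7% of all genes, and 7 and 3 were called after TPM, beside 11.2% and 48.9%. Of the MYB activators of indole glucosinolate synthesis, MYB34 rose from 22.3 ± 0.30 to 52.2 ± 2.51 FPKM and MYB51 from 46.1 ± 2.47 to 99.0 ± 6.88 FPKM. Their relative MYB122 was below the filter, with a mean of 0.207 FPKM in the lines, and was not tested. MPK3, a kinase of the immune cascade, rose from 261 ± 13.95 to 635 ± 20.0 FPKM (log2 fold change 1.28 with SE 0.05). The bHLH partners of these MYB factors did not move together. MYC2, the most abundant and named after its values were seen, rose from 217 ± 2.00 to 344 ± 3.65 FPKM. MYC4 fell from 5.15 ± 0.473 to 1.64 ± 0.903 FPKM. MYC3, also lower and named after its values were seen, fell from 16.97 ± 1.504 to 9.95 ± 0.989 FPKM.

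Of 11 tested genes of breakdown and transport 6 were called higher and 3 lower (median 0.37), beside 25.0% and 15.7% of all genes, and 4 and 5 after TPM, beside 11.2% and 48.9%. NAI1, among the 6 and named after its values were seen, had overlapping groups, at 11.2 ± 2.77 and 16.6 ± 2.91 FPKM. It was no longer called higher after TPM or with no filter. Dropping line 2, line 3, wild-type sample 2 or wild-type sample 3, each in turn, also ended its call. PEN2, the myrosinase that cleaves the 4-methoxy product, rose from 96.6 ± 1.73 to 268 ± 3.08 FPKM (log2 fold change 1.46 with SE 0.043). PEN3, the transporter that acts with it, rose from 408 ± 39.1 to 1083 ± 33.5 FPKM, and PCS1, also known as PEN4, from 85.7 ± 1.40 to 321 ± 7.64 FPKM. The transporter gene GTR3, 1 of the 3 called lower, was at 1.98 ± 0.40 FPKM in wild type but 0.867 ± 0.507 FPKM in the lines. It passed the filter on low values through wild type only, so its call gives no support to a direction. The call was also lost without any 1 of the samples except line 3, after quantile normalization, with a pseudocount of 0.1 and with the replicate block. Its relatives, named after their values were seen, were called higher: GTR1 rose from 188 ± 7.33 to 306 ± 5.41 FPKM and GTR2 from 34.5 ± 0.393 to 44.9 ± 1.97 FPKM, the latter not called after TPM. Of the myrosinase genes named after their values were seen, PYK10 fell from 112 ± 3.66 to 70.9 ± 3.43 FPKM and TGG2 from 656 ± 18.5 to 514 ± 10.04 FPKM. TGG1, at 920.3 ± 25.6 and 943 ± 14.5 FPKM, and BGLU18, at 101 ± 4.66 and 107 ± 6.78 FPKM, were not called as deposited, and both were called lower after quantile normalization and after TPM. After TPM, TGG1 lay only 0.034 below the median of all genes and BGLU18 0.015 above it. After quantile normalization they lay 0.33 and 0.19 below it.

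In the branch from the same oxime to camalexin and indole carbonitriles 0 of 4 genes were called higher and 3 lower (median -1.23), beside 25.0% and 15.7% of all genes, and 4 were called lower after TPM, beside 48.9%. CYP82C2 and CYP71A13 passed the filter on low values through wild type only, so their calls and this count give no support to a direction of the branch. Without any 1 wild-type sample CYP71A13 fell under the filter and 2 genes were called lower. CYP82C2, which makes the 4-hydroxylated carbonitrile, averaged 4.62 ± 0.586 FPKM in wild type and fell nearly to 0 in the lines, at 0.045 ± 0.04 FPKM. CYP71A12 fell from 10.7 ± 0.773 to 3.63 ± 0.918 FPKM and CYP71A13 from 1.75 ± 0.417 to 0.276 ± 0.141 FPKM. Among the 9 tested genes of the other CYP81 subfamilies 1 rose and 3 fell (median -0.04), and 1 and 4 were called after TPM, beside 11.2% and 48.9% of all genes. CYP81D8 rose from 7.29 ± 0.533 to 37.6 ± 3.65 FPKM. CYP81D11 fell from 4.63 ± 0.603 to 1.47 ± 0.382 FPKM and CYP81D4 from 16.4 ± 0.687 to 12.4 ± 0.766 FPKM. CYP81H1 fell from 11.9 ± 1.78 to 8.02 ± 1.19 FPKM, a call that ended without wild-type replicate 1 or 3 or without line 1 (highest limma adjusted p over its alternatives 0.067).

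**Figure D5:**
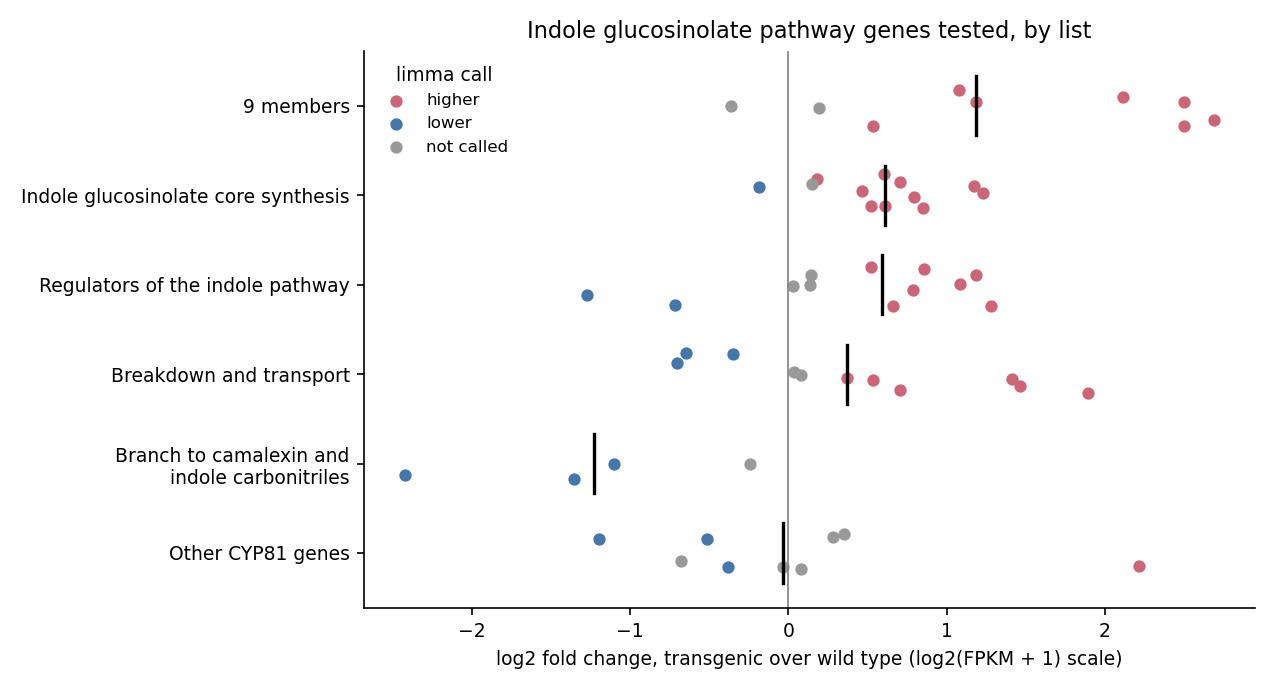
Log2 fold change, lines over wild type in log2(FPKM + 1), of each tested gene by list, coloured by limma call, with the list median as a black line. The medians run from 1.19 for the 9 CYP81F and IGMT genes through 0.61, 0.59 and 0.37 to -0.04 for other CYP81 genes and -1.23 for the camalexin branch.

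Likeness of pattern was measured as the distance between log2(FPKM + 1) profiles over the 6 samples, each centred on its mean, which with 2 groups mostly compares the group difference. The 5 genes nearest to CYP81F2 were DMP1, the chitinase family gene AT1G02360, PP2-A5, AT2G43120 and IGMT2, at distances of 0.381 to 0.461. IGMT3 came 6th and IGMT1 11th of all genes tested, while IGMT4 came 410th and CYP81F1 14042nd. PUB19, PP2-A5, the lectin family gene AT3G15356, CRK34 and NADK1 were nearest to IGMT1, at 0.184 to 0.236. In that order CYP81F2 came 49th, IGMT2 57th, IGMT3 117th and IGMT4 387th. Since the members were chosen with the group difference known, their ranks are descriptions only. The genes nearest to CYP81F4 were CCoAOMT1, ELC, AT1G29700, AT1G71500 and AT5G35170, at 0.068 to 0.087. For IGMT5 they were RPS13A, RPS6, MGP1, GRF10 and AT1G16700, at 0.039 to 0.059. CYP81F4 and IGMT5, the 1-position genes, were 0.492 apart. IGMT5 came 3766th in the order for CYP81F4, and CYP81F4 came 7459th in that for IGMT5. The nearest genes depend on the scaling: those of CYP81F4 and IGMT5 were all replaced after quantile normalization, and some of those of CYP81F2 were.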

How the data were processed

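Leaf mRNA of 3 wild-type samples and 3 transgenic lines was analysed from 1 table of 21981 genes, whose values the authors deposited as FPKM. TopHat2, DESeq and TAIR10 are named, without version or role, per the submitters' processing notes. Which program gave the FPKM, which annotation, and whether strand was used is not given in the sources used here. FPKM give no read numbers, so depth is unknown and precision rests on 3 samples a group.

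limma 3.58.1 in R 4.3.3 was run on log2(FPKM + 1) for the 17093 genes averaging 1 FPKM or more, with a mean-variance trend and no covariate, and p-values were adjusted by Benjamini-Hochberg over all genes tested (threshold 0.05). The step was tested on simulated data. SE are limma's moderated errors. The labels do not state separate plants, so p-values reflect only the spread of these samples, possibly technical. Alternatives were 3 other scalings, a pseudocount of 0.1, no filter, a minimum mean of 5 FPKM, the title number as a block and leaving out each sample. The members and lists were chosen with earlier results of these data known. Named genes are the 9 members, up to 4 called genes per list with the largest change, 8 set pathway genes, neighbours, and the 5 genes nearest in pattern to CYP81F2, IGMT1, CYP81F4 and IGMT5. GSTF9, SUR1, MYC2, MYC3, NAI1, GTR1, GTR2, PYK10, TGG1, TGG2 and BGLU18 fall outside this rule and were named after their values were seen.

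Gene models and sequences came from RefSeq TAIR10.1, and only locus names link them to the table. Coding sequences, taken from the transcript with coding length nearest the family median, and upstream windows were aligned end to end with Biopython 1.88 (match 2, mismatch -1, gap opening -5, extension -1). Identity is the share of all aligned columns, gaps included.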

Additional observations from a re-analysis of the deposited data

How the results depend on the processing

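The 7 members called higher were 7 under every alternative but TPM and the minimum mean of 5 FPKM, which left 7 of 9 tested, each with 6. After rescaling to TPM 1907 genes were called higher and 8363 lower (4273 and 2676 as deposited), 1 member was called lower and 2 had all lines below all wild-type samples, and IGMT5 turned to -0.17. The members' median log2 fold change was 0.81 after TPM, 1.22 after quantile normalization, 1.15 with median-of-ratios factors, 1.40 with a pseudocount of 0.1 and 2.11 at the minimum of 5 FPKM, and 1.17 to 1.22 when 1 sample was left out. Members with all lines below all wild-type samples numbered 0 to 1 when 1 sample was left out, the 1 being CYP81F1 without line 2. Calls for all genes were 3270 higher and 3448 lower after quantile normalization, so 48.7% of calls were higher, against 61.5% as deposited and 18.6% after TPM. The lower calls became 3 in core synthesis and 5 in breakdown and transport after TPM, and 1 among regulators and 1 in the camalexin branch at the minimum of 5 FPKM, where fewer genes are tested. SUR1, of core synthesis, was called higher as deposited and came to -0.064 after quantile normalization (limma adjusted p = 0.391) and -0.19 after TPM, 0.12 above the median of all genes there; its call was also lost with median-of-ratios factors, the replicate block and 3 of the samples left out in turn. Of the 5 genes nearest in pattern, 2 for CYP81F2, 0 for CYP81F4 and 0 for IGMT5 were shared after quantile normalization. Apart from the effects of the scalings and filters themselves, the cause of these changes was not tested. With the title number as a replicate block, 4155 genes were called higher and 2551 lower, and 7 members higher. Same-numbered samples did not deviate together (r of -0.035, 0.049 and -0.023 across genes), and pairs of unlike number gave r between -0.071 and 0.093. No pairing by number was seen, but such correlations cannot exclude a shared batch.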
